A study of Mus musculus with 16 samples.

Results

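Beta cells of the pancreatic islet couple blood glucose to insulin release through a chain of membrane proteins, and 9 genes of that chain were chosen here by symbol: Slc2a2, Kcnj11, Abcc8, Cacna1d, Slc30a8, Glp1r, Gipr, Ffar1 and Trpm5. The rule lists symbols of this chain and sets no threshold on a measured value. Rows for 7 of the 9 were found among the 18111 gene symbols of the deposited table, and Kcnj11 and Gipr were not analysed here. The 7 genes were read by 13 probes. Of the 7, all but Ffar1 (6 genes) passed the filter on low signal and were tested between tissues and in islets, and 1, Slc2a2, was tested in hepatocytes.

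Biotinylated cRNA made from total RNA was read on 16 Illumina arrays, in 4 groups of 4 arrays each. The first group was primary pancreatic islets kept for 48 h with 10 nM FK866, a blocker of the NAD-making enzyme NAMPT, and the second was islets given 0.1% DMSO for the same time. The third was primary hepatocytes kept for 48 h with 200 nM FK866, and the last was hepatocytes with 0.1% DMSO. All the cells came from wild type B6 mice, and their age is not given by the labels. Nothing in the labels tells whether replicates came from different mice or from different dishes, and each p-value therefore covers the spread of these arrays alone, part or all of which may be technical. The dose differed between the tissues, so a difference between islets and hepatocytes in their FK866 change cannot be told apart from one of dose.

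In a beta cell, glucose enters through the transporter GLUT2 and is metabolised to ATP, which closes a potassium channel built of the sulfonylurea receptor SUR1 and the pore Kir6.2. The membrane then depolarises, voltage-gated calcium channels open, and calcium triggers the release of granules that hold insulin with zinc. Hormone and fatty acid receptors raise this release through G proteins, and a cation channel opened by calcium adds to the depolarisation. Slc2a2 encodes GLUT2, Abcc8 encodes SUR1, Cacna1d a pore of L-type calcium channels, Slc30a8 the zinc transporter ZnT8 of the granule, Glp1r and Gipr the receptors of the incretin hormones GLP-1 and GIP, Ffar1 a receptor of long-chain fatty acids, and Trpm5 the cation channel. Hepatocytes also use GLUT2, to pass glucose in and out of the liver.

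The 250 bases before the start site of 3 of the genes are shown because Slc2a2 and Trpm5 moved together over the islet arrays and Glp1r did not move with them, as described further on. They come from RefSeq on build GRCm38.p6, and each is written 5′ to 3′ on the strand of its gene. The Slc2a2 stretch is chr3:28697653-28697902 (+ strand), the Trpm5 stretch chr7:143094643-143094892 (− strand) and the Glp1r stretch chr17:30901617-30901866 (+ strand). Capitals mark matches on either strand to TAAT, a core of homeodomain sites, or to CANNTG, the E-box.
Slc2a2: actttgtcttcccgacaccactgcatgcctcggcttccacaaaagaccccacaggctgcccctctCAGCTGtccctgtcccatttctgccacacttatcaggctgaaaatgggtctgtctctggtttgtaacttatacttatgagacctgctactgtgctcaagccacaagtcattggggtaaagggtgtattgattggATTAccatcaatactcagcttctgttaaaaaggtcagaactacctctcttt
Trpm5: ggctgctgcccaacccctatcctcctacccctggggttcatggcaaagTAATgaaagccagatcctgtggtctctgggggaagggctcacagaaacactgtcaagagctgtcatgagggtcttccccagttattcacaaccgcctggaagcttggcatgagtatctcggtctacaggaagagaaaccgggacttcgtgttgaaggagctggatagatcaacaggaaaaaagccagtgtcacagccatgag
Glp1r: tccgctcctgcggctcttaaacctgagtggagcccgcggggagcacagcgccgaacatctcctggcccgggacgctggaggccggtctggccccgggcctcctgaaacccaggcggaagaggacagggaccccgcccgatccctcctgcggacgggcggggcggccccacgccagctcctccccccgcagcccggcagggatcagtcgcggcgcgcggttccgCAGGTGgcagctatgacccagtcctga
The Slc2a2 stretch held 1 TAAT match, read on the opposite strand, and 1 CANNTG match. The Trpm5 stretch held 1 TAAT match and 0 CANNTG matches, and the Glp1r stretch held 0 and 1. No match overlapped another. Of 32851 mouse promoter windows of the same length, 54.9% held TAAT and 66.2% held CANNTG, so these matches are common ones. G and C made up 47.2% of the bases for Slc2a2, 52.8% for Trpm5 and 73.2% for Glp1r.

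The labelled tissues were checked against their defining markers. In islet controls against hepatocyte controls, Ins2 (insulin) was at least 956-fold higher and Gcg (glucagon) at least 820-fold higher, while Apoa1, an apolipoprotein of hepatocytes, was at least 173-fold higher in the hepatocytes. Ins1 and Iapp were higher in islets by 9.22 and 5.58 log2 units, yet both were detected on 4 of 4 hepatocyte control arrays. Apoa2 had a difference of -6.74 and was detected on 4 of 4 islet control arrays. Of 15 measured beta cell markers, a list that includes the member Slc30a8, 13 were detected on every array of both islet groups. On every array of a hepatocyte group, 4 were detected with FK866 and 3 in controls. Medians of the deposited signal were 26.9 to 33.1 on 6 of the islet arrays and 27.1 to 30.1 on the hepatocyte arrays. Both islet arrays numbered 2, 1 of each treatment, stood apart with medians of 15.4 and 18.0 and with median correlations to the other arrays of their tissue of 0.916 and 0.959, against 0.984 to 0.993 for the other islet arrays. Values that rest on these arrays are therefore also given without them. Islets hold several cell types, so fewer beta cells and less RNA per beta cell cannot be told apart in any islet value.

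All 6 tested genes were higher in islet controls than in hepatocyte controls in a limma fit, with p-values adjusted by Benjamini-Hochberg over 10071 genes. In that fit 35.0% of all tested genes were higher in islets and 31.1% were lower, 66.0% in all, and 31.6% had every islet control array above every hepatocyte control array. The islet signal was at least 88.0-fold higher for the channel subunit Abcc8 and at least 120.1-fold higher for the zinc transporter Slc30a8, and 2.13-fold higher for the calcium channel Cacna1d. Signals below are on the log2 scale of neqc, a background correction and quantile normalization, and are compared only between arrays for 1 probe, never between genes. A probe counted as detected at a detection p under 0.05. For a gene with no detected array in a group, only a least fold is given, against the higher of its own signal and the lowest detected signal there. Abcc8, Slc30a8 and Trpm5 were detected on no hepatocyte array, and Cacna1d and Glp1r on too few to pass the filter on low signal. These genes were therefore tested only because islet arrays detected them, while Ffar1, detected in neither tissue, was left out. The filter thus favoured members higher in islets, and the count of 6 does not cover members that failed it.

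Slc2a2, the glucose entry step, was the 1 member detected on every array of both tissues. Its log2 signals in islet controls were 11.01, 9.31, 10.39 and 9.98, against 8.32, 7.52, 7.55 and 8.04 in hepatocyte controls. The groups did not overlap, and the islet array numbered 2 was the lowest of its group. The difference was 2.31 (SE 0.31, 95% interval 1.64 to 2.98), a 4.97-fold higher signal in islets, with an adjusted p of 8.34e-06 by limma. With FK866 the order was alike, at 10.24, 9.56, 9.94 and 9.71 in islets and 8.27, 7.54, 7.38 and 7.97 in hepatocytes. The other 2 Slc2a2 probes were detected on 3 of 4 islet control arrays each and on 0 of 4 hepatocyte control arrays, so the hepatocyte signal of this gene rests on its brightest probe.

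Abcc8, the regulatory subunit of the ATP-sensitive potassium channel, had log2 signals of 11.68, 13.72, 12.61 and 11.64 in islet controls, against 5.05, 4.93, 4.89 and 4.90 in hepatocyte controls. Detection held for 4 of 4 islet arrays and 0 of 4 hepatocyte arrays. The islet signal was at least 88.0-fold higher (limma adjusted p 4.27e-10). The islet values spread over more than 2 log2 units, with array 2 the highest and array 3 next. The lowest of them, 11.64, lay above every hepatocyte control array, and the call held without the islet arrays numbered 2 and 3.

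Slc30a8, the transporter that loads zinc into insulin granules, spread less than Abcc8 over the islet control arrays on its brightest probe. Its log2 signals were 13.27, 12.51, 12.80 and 12.87 in islet controls and 4.90, 4.95, 4.91 and 4.83 in hepatocyte controls. It was detected on every islet array and on no hepatocyte array. Slc30a8 was at least 120.1-fold higher in islets, with a limma adjusted p of 2.53e-16. Its other 2 probes gave at least 23.3-fold and at least 10.2-fold, so the direction was shared by all 3 while the bound was not. The dimmest probe spread widely, from 7.74 to 10.33 over the islet controls.

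Trpm5, the calcium-activated cation channel, had log2 signals of 10.40, 9.49, 9.66 and 9.94 in islet controls and 5.48, 5.53, 5.56 and 5.36 in hepatocyte controls. The groups were far apart, with no hepatocyte array detected. Trpm5 was at least 15.1-fold higher in islets (limma adjusted p 7.10e-12), and its second probe gave at least 9.66-fold.

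Cacna1d and Glp1r were near the detection limit in hepatocytes. Cacna1d, the L-type calcium channel pore, was at 7.09, 7.31, 7.03 and 6.65 in islet controls, against 5.92, 5.80, 5.97 and 6.03 in hepatocyte controls. The difference of 1.09 (SE 0.16, a 2.13-fold higher signal in islets) had a limma adjusted p of 2.11e-05. Glp1r, the GLP-1 receptor, was at 7.005, 7.72, 7.45 and 6.78 in islet controls, against 5.65, 5.95, 5.83 and 5.83 in hepatocyte controls. Its difference was 1.42 (SE 0.19, 2.68-fold) with a limma adjusted p of 8.30e-06. For both genes the groups did not overlap, all 4 islet control arrays were detected, and 1 of 4 hepatocyte control arrays was.

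Ffar1, the long-chain fatty acid receptor, was detected on 0 of 16 arrays. Its log2 signals were 5.71, 5.34, 5.46 and 5.44 in FK866 islets and 5.66, 5.80, 5.12 and 5.37 in islet controls, against 5.33, 5.13, 5.13 and 5.33 in FK866 hepatocytes and 5.21, 5.02, 5.02 and 5.11 in hepatocyte controls. The tissues overlapped, since the islet control array at 5.12 lay below all 4 FK866 hepatocyte arrays. No fold is given for a gene below background in both tissues, and its absence from the RNA does not follow from a probe that was not detected.

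**Figure D1:**
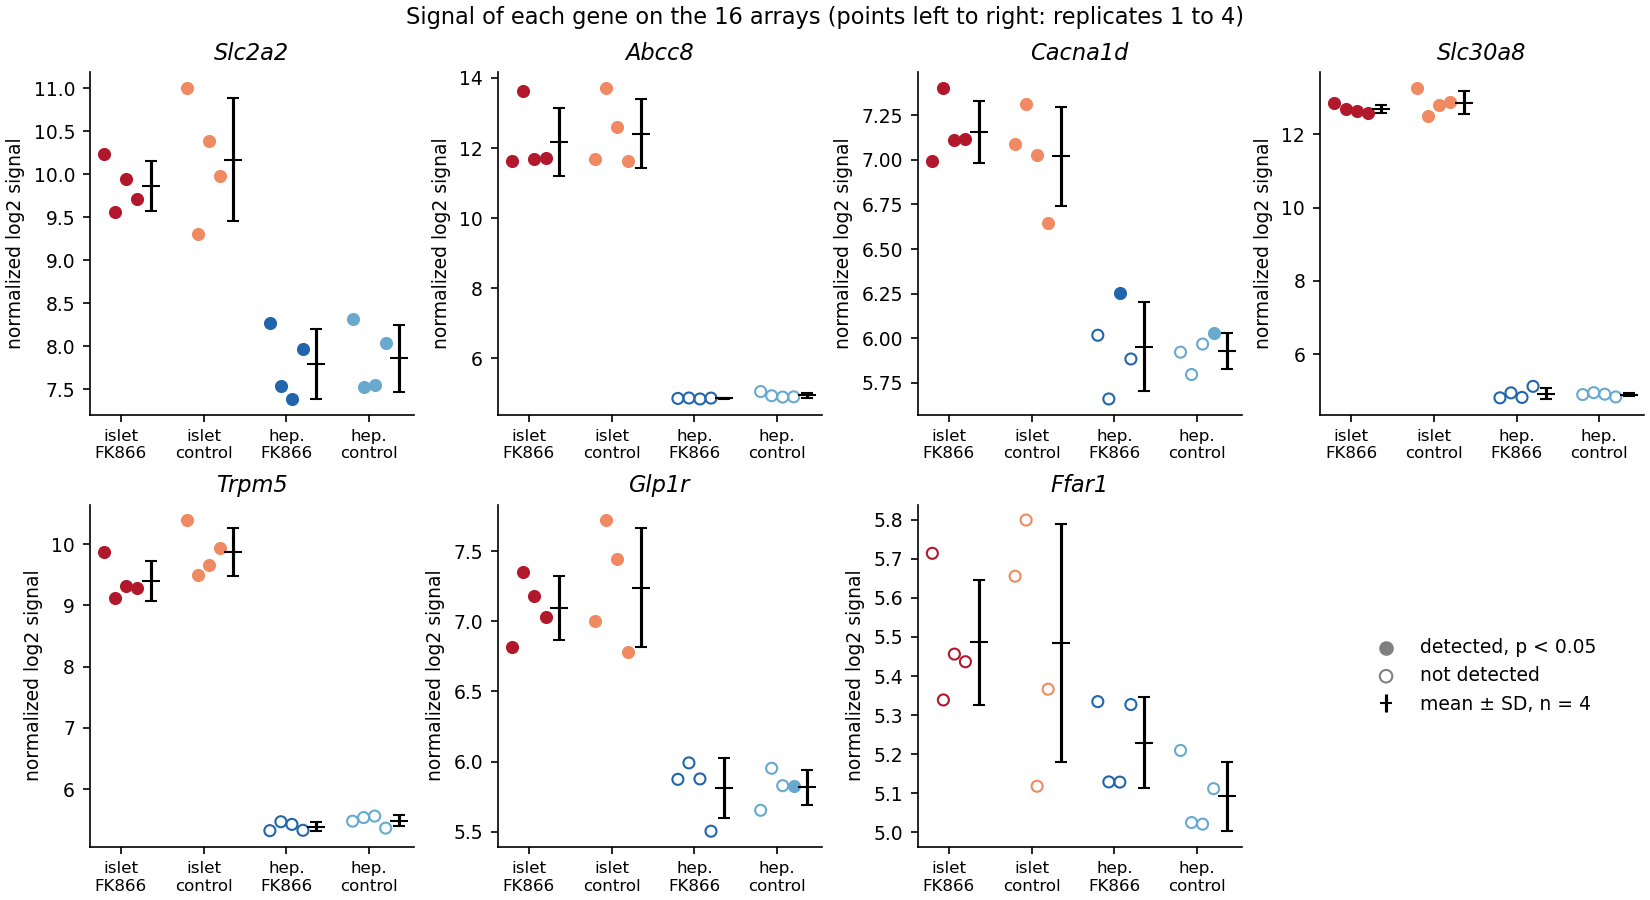
Normalized log2 signal of the brightest probe of each gene (vertical axes, each with its own range that does not start at 0) on the 4 arrays of each group, with filled points for detected and open points for undetected arrays and bars for the mean ± SD (n = 4). Islet points lie above hepatocyte points for the first 6 genes, Abcc8 is high on both islet arrays numbered 2, and all 16 points of Ffar1 are open.

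**Figure D2:**
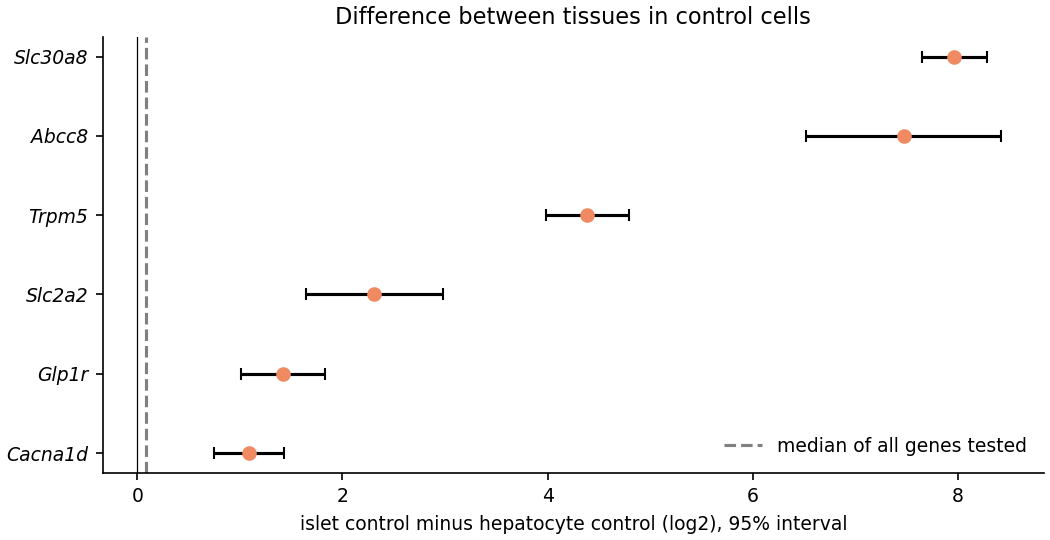
Difference in log2 signal between islet controls and hepatocyte controls (horizontal axis) for the 6 tested genes, with 95% intervals from limma and a dashed line at the median of all genes tested, 0.08. The intervals of Slc30a8 and Abcc8 lie above 6 and that of Cacna1d lies below 2; for Slc30a8, Abcc8 and Trpm5 the hepatocyte signal was below detection, so their points depend on the background level.

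The wider pathway was read from a list of 179 further genes in 7 roles, of which 103 were tested between tissues. Of these 52 were higher in islet controls, 18 were lower and 33 did not pass, where 35.0% of all tested genes were higher and 31.1% were lower. The list had a median difference of 0.71, against 0.08 over all genes tested. All changes named from the list passed limma's test at an adjusted p under 0.05.

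Among genes of glucose entry and phosphorylation, 6 of 11 tested were higher in islets and 3 were lower. G6pc2, the islet glucose-6-phosphatase, was at least 118-fold higher. Slc2a1, the broadly expressed transporter GLUT1, was lower in islets by 1.45 log2 units (difference -1.45, SE 0.26), with mean log2 signals of 9.83 ± 0.60 in islet controls and 11.29 ± 0.23 in hepatocyte controls (SD, n = 4 each). Slc2a3, the transporter GLUT3, was at least 1.91-fold higher in islets and was detected on no hepatocyte control array. G6pc3, a widely expressed glucose-6-phosphatase, differed by 1.84 (SE 0.38). Hk1, a hexokinase, and G6pc, the liver glucose-6-phosphatase, were lower in islet controls, where neither was detected, which leaves them at least 1.10-fold and 1.11-fold higher in hepatocyte controls.

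Of 10 potassium channel genes tested, 7 were higher in islets and 1 was lower. Kcnh2, Kcnk1 and Kcnip1 were at least 26.8-fold, 24.0-fold and 14.0-fold higher, and none of the 3 was detected in hepatocyte controls. Kcnip1 encodes a calcium-binding partner of Kv4 channels. Kcnj8, the Kir6.1 pore that can also join a sulfonylurea receptor, was detected on 0 of 4 islet control arrays and 2 of 4 hepatocyte control arrays, at least 1.12-fold higher in the hepatocytes. That call was lost when the replicate number was fitted as a random block.

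Calcium and sodium handling genes were higher in islets in 10 of 17 cases and lower in 2. Atp2a3, the SERCA3 calcium pump, was at least 290-fold higher, and Atp2a2, the SERCA2 pump, was at 14.37 ± 0.32 in islet controls against 10.34 ± 0.07 in hepatocyte controls, a difference of 4.02 (SE 0.15). Cacna2d1, an auxiliary subunit of calcium channels, was at least 30.6-fold higher, and the pacemaker channel gene Hcn2 differed by 3.75. Orai1, a pore of store-operated calcium entry, was lower in islets (-1.50, SE 0.19). Cacna1c, the other common L-type pore, had a difference of -0.65 (SE 0.19), opposite in sign to that of Cacna1d, but the call was lost on the mean of its probes and on the deposited scores.

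Of 6 TRP channel genes tested beside Trpm5, 2 were higher in islets and 0 were lower, and the higher ones are a share near the 35.0% of all tested genes. Trpm4, the nearest relative of Trpm5, was at least 1.72-fold higher and Trpm2 at least 1.87-fold higher, both detected on all 4 islet control arrays and on no hepatocyte control array.

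Of 17 zinc transport and binding genes tested beside Slc30a8, 5 were higher in islets and 6 were lower, with a median of -0.36. These counts are near the background of 35.0% higher and 31.1% lower over all tested genes. Slc39a4, an importer of zinc, was at 5.83 ± 0.33 in islet controls against 12.98 ± 0.09 in hepatocyte controls, a difference of -7.15 (SE 0.17). The importers Slc39a14 and Slc39a1 were also lower in islets, each with a difference of -1.50, and so was Slc30a7, a Golgi zinc transporter, at -1.28 (SE 0.16). Mt2, a zinc-binding metallothionein, was higher by 2.59 (SE 0.16), Slc39a3 was at least 3.49-fold and Slc30a9 at least 2.23-fold higher. Slc39a7, a zinc transporter of the endoplasmic reticulum, was higher by 0.85 on this scale and turned to -0.08 on the deposited scores.

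Among G protein-coupled receptors, 8 of 16 were higher in islets and 2 were lower. Adra2a, the adrenergic receptor through which adrenaline lowers insulin release, was at least 73.7-fold higher. Ffar2, a receptor of short-chain fatty acids, was at least 42.4-fold higher, where its relative Ffar1 was below detection. P2ry1, a nucleotide receptor, differed by 2.15 (SE 0.18) and Chrm3, the muscarinic receptor of vagal acetylcholine, by 1.70 (SE 0.17). Gprc5c (-1.55) and the dopamine receptor gene Drd2 (-0.69) were lower in islets.

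Downstream, 14 of 26 genes of cyclic AMP and phospholipase C signalling were higher in islets and 4 were lower. Prkcb, a protein kinase C, Gnaz, a G protein alpha subunit, and Prkar1b, a regulatory subunit of protein kinase A, were at least 70.0-fold, 59.2-fold and 12.4-fold higher. Camk2b, a calcium-dependent kinase, differed by 4.15 (SE 0.23). The phosphodiesterase gene Pde4d (-1.40), the phospholipase genes Plcb4 (-0.71) and Plcb3 (-0.66) and the kinase gene Camk2d (-0.77) were lower in islets, though Camk2d turned to 0.10 on the deposited scores and lost its call in several alternatives.

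**Figure D3:**
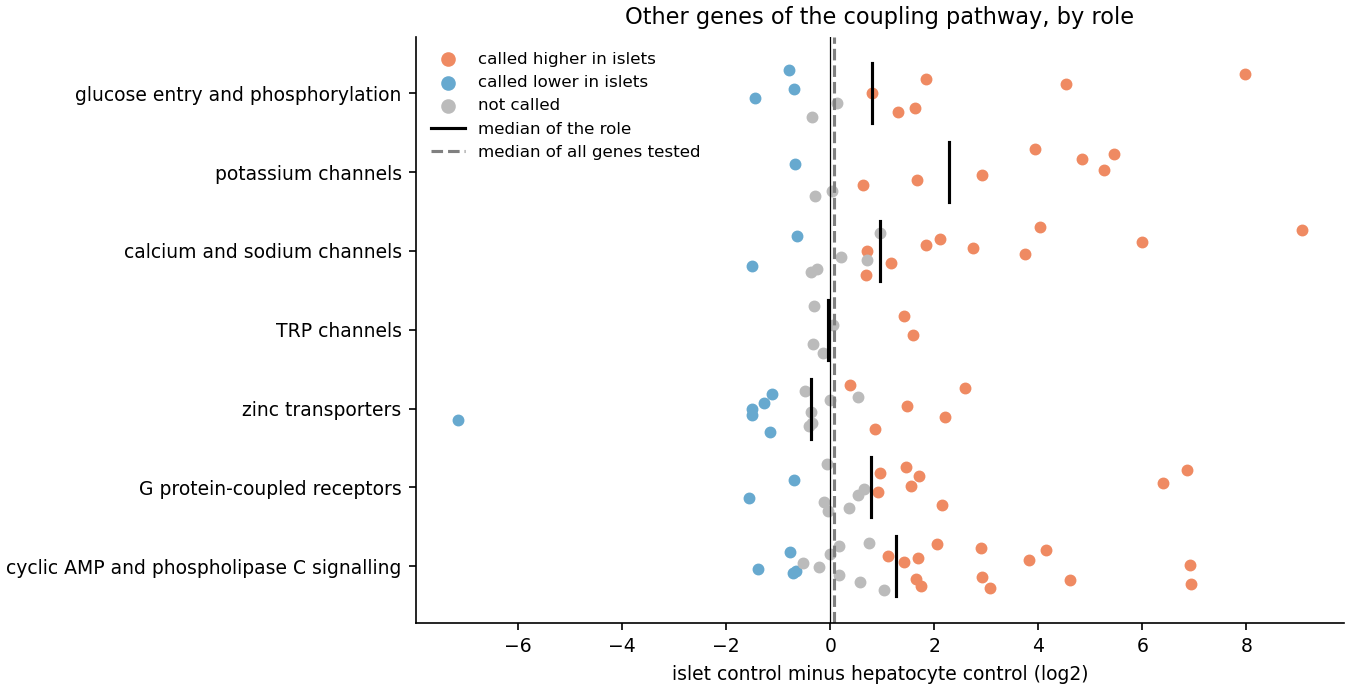
Difference in log2 signal between islet controls and hepatocyte controls (horizontal axis) for the 103 tested genes of the list, by role from top to bottom, coloured by call, with a black bar at the median of each role and a dashed line at the median of all genes. Zinc transporters are the role with the lowest median, -0.36, and the point near -7 is Slc39a4; Slc39a7 and Camk2d change sign on the deposited scores.

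FK866 was set against DMSO within each tissue, in a study designed around NAD depletion; NAD itself is not measured on these arrays. None of the 6 members tested in islets passed the test, and neither did any of 8922 genes (0 called by limma after Benjamini-Hochberg adjustment, 0.0% of genes, with 121 or 1.36% at an unadjusted p under 0.05). All 6 had an adjusted p of 1.00. With the replicate number as a block 1 gene was called, 0.0112%, and it was no member. Values in these comparisons come from each tissue normalized on its own. Pairs are arrays with the same replicate number, taken as pairs because they deviated together. Pair 3 of the islets is less sure, since FK866 array 3 deviated more with control arrays 1 and 4 than with control array 3. The SEs and intervals given leave these pairs out of account unless the replicate block is named.

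Trpm5 was the member whose values leaned most evenly one way. In islets its log2 signals were 9.83, 9.10, 9.29 and 9.25 with FK866, against 10.35, 9.46, 9.62 and 9.89 in controls. FK866 was below control in 4 of 4 pairs, by differences of -0.52, -0.36, -0.33 and -0.65, yet the groups overlapped because FK866 array 1 lay above 2 control arrays. The change was -0.46 (SE 0.25, 95% interval -1.04 to 0.11, unadjusted p 0.100 by limma), and -0.43 on the second probe. With the replicate block the SE was 0.13 and the unadjusted p 0.0063, with an adjusted p of 0.280; over all alternatives the adjusted p lay between 0.280 and 1.00. Across all genes, 12.0% were lower in all 4 islet pairs, so many genes shared that trait of Trpm5. In limma with the block, 11.6% of genes had an unadjusted p under 0.05, in either direction. How many had a p as small as that of Trpm5 was not counted.

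Slc2a2 in islets was at 10.19, 9.52, 9.90 and 9.68 with FK866, against 10.95, 9.28, 10.34 and 9.93 in controls. FK866 was lower in 3 pairs and higher in pair 2, and the controls enclosed all the FK866 values. The change was -0.30 (SE 0.35, 95% interval -1.09 to 0.49 by limma). With the replicate block the SE was 0.17 and the interval -0.70 to 0.10. Both intervals leave room for a gain, and the one without the block also for a loss of more than 2-fold. The other 2 probes of Slc2a2 changed by 0.06 and -0.17, each detected on 3 of 4 arrays in both islet groups.

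Slc30a8 was at 12.73, 12.56, 12.52 and 12.46 with FK866, against 13.17, 12.39, 12.67 and 12.74 in islet controls. The groups overlapped, with a change of -0.17 (SE 0.20, 95% interval -0.63 to 0.28). Like Slc2a2, it was lower with FK866 in pairs 1, 3 and 4 and higher in pair 2.

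Abcc8 was at 11.54, 13.53, 11.60 and 11.62 with FK866, against 11.59, 13.61, 12.49 and 11.54 in islet controls. The change of -0.23 (SE 0.59, 95% interval -1.58 to 1.11) came almost wholly from pair 3, at -0.89, while the other pairs lay between -0.08 and 0.08. With the replicate block the SE was 0.18 and the interval -0.65 to 0.18. Without the islet arrays numbered 2 and 3 the change was 0.015.

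Cacna1d was at 6.95, 7.37, 7.06 and 7.07 with FK866, against 7.04, 7.28, 6.98 and 6.60 in islet controls, and was the one tested member with a change above 0 (0.14, SE 0.20). Glp1r was at 6.77, 7.32, 7.14 and 6.98 with FK866, against 6.96, 7.70, 7.42 and 6.73 in islet controls, a change of -0.15 (SE 0.25). Both pairs of groups overlapped. Pair 4 stood on the positive side for both genes, at 0.47 and 0.25. The 95% intervals ran from -0.31 to 0.59 for Cacna1d and from -0.71 to 0.42 for Glp1r.

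In hepatocytes Slc2a2 was the 1 member detected widely enough to test, and it did not pass the test. Its log2 signals were 8.30, 7.57, 7.42 and 7.99 with FK866, against 8.35, 7.55, 7.57 and 8.06 in controls. The change was -0.06 (SE 0.23, 95% interval -0.59 to 0.46, adjusted p 1.00 by limma), and 0 of 8566 genes were called (0.0%, with 145 or 1.69% at an unadjusted p under 0.05). With the replicate block 6.25% of genes had an unadjusted p under 0.05, and Slc2a2 was not among them (unadjusted p 0.321). Same-numbered arrays lay within 0.16 of each other. On the deposited scores, which average all 3 probes of the gene, Slc2a2 was at 0.35, 0.12, 0.18 and 0.32 with FK866, against 0.17, -0.06, -0.06 and -0.11 in controls, a difference of 0.26 with an adjusted p of 1.00. The 2 dimmer probes, at 0.18 and 0.38 log2 units higher with FK866, were detected on none of the 8 hepatocyte arrays.

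Whether the FK866 change differed between islets and hepatocytes was tested as an interaction over all 16 arrays, and 0 of the 6 members and 0 of 10071 genes were called by limma (0.0%, with 180 or 1.79% at an unadjusted p under 0.05). With the replicate block 4 genes, 0.0397%, were called and 10.6% had an unadjusted p under 0.05; Trpm5 had an unadjusted p of 0.0145 and an adjusted p of 0.353, within a range of 0.257 to 1.00 over all alternatives. The differences, islet change minus hepatocyte change, were -0.24 (SE 0.44) for Slc2a2, -0.15 (SE 0.63) for Abcc8, 0.11 (SE 0.23) for Cacna1d, -0.195 (SE 0.21) for Slc30a8, -0.14 (SE 0.27) for Glp1r and -0.37 (SE 0.27) for Trpm5. For all but Slc2a2 the hepatocyte side is a signal at or below detection, so the interaction says little about hepatocytes there.

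In the wider list, 0 of 88 tested genes were called with FK866 in islets and 0 of 68 in hepatocytes. In the interaction it was 0 of 103. Over all genes, 0 of 8922, 0 of 8566 and 0 of 10071 were called in the same fits, so these counts are not particular to the list. Without the replicate block, the smallest unadjusted p-values of the list in islets belonged to Slc39a1, with a change of 0.86 (SE 0.31), and Slc2a3, with -0.58 (SE 0.24). Slc39a1 was detected on 4 of 4 FK866 arrays and 2 of 4 control arrays, and pair 2 alone gave 2.10. In hepatocytes they belonged to Mt2, at -0.36 (SE 0.12), and Slc39a14, at -0.25 (SE 0.10). In the interaction they belonged to Hk1, at -0.58 (SE 0.24) with no detected islet array, and Mt2, at 0.45 (SE 0.22). The adjusted p was 1.00 for each of these by limma. With the replicate block the smallest p of the list belonged to Kcnk3, a potassium channel gene named after its values were seen, both in islets (change -0.81, unadjusted p 0.00123, adjusted p 0.179) and in the interaction (-0.95, unadjusted p 0.000409, adjusted p 0.0988). It was not called in either, and its adjusted p without the block was 1.00 in both.

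**Figure D4:**
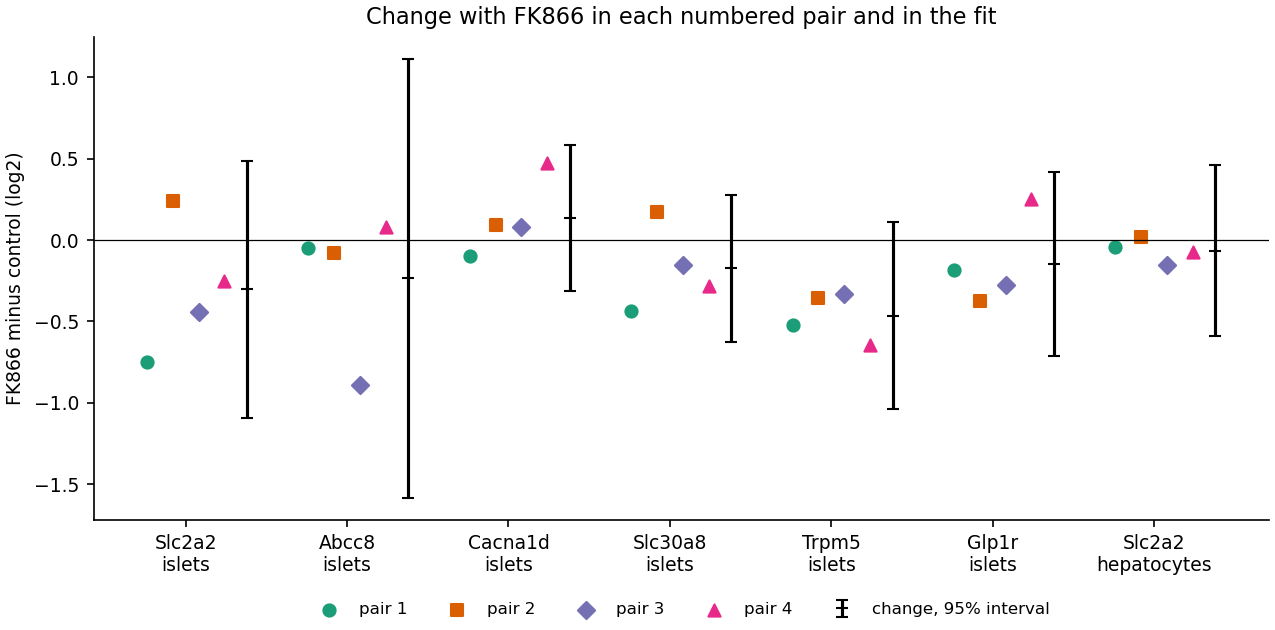
Change in log2 signal with FK866 (vertical axis, FK866 minus control) for each member tested, with 1 coloured symbol for each pair of same-numbered arrays and a black bar for the change with its 95% interval from limma. Every interval drawn is from the fit without the replicate block and spans 0. With the block, the Trpm5 interval in islets ran from -0.76 to -0.17 (limma adjusted p 0.280). The 4 Trpm5 symbols all lie below 0, and pair 3 of Abcc8 lies near -0.9.

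Some of the members followed one another over the 8 islet arrays. This is given as a description of arrays that share a tissue and a platform and span both treatments. Slc2a2, Slc30a8 and Trpm5 went together, with Pearson's r of 0.91 for Slc2a2 with Slc30a8, 0.89 for Slc30a8 with Trpm5 and 0.81 for Slc2a2 with Trpm5. On the 6 arrays without those numbered 2 the same values were 0.92, 0.97 and 0.84. Abcc8 and Glp1r also went together, at 0.86 over 8 arrays and 0.85 over 6. Abcc8 with Cacna1d was at 0.73 over 8 arrays and 0.15 over 6, so that relation rests on the arrays numbered 2. Cacna1d with Glp1r was at 0.71 over 8 arrays and 0.52 over 6. Slc2a2 with Abcc8 was at -0.59 over 8 arrays and 0.18 over 6. How often other pairs of genes reach such values on these arrays was not counted.

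The genes most like each member were sought by r among 7424 genes detected on all 8 islet arrays. For Slc2a2 they were Nptn and Bcl2l11, both at 0.97, and Socs2 at 0.95. Gjd2, a connexin gene, stood nearest to Slc30a8 at 0.98, followed by Polr3k at 0.96 and Hs3st6 at 0.95. Hs3st6 was also nearest to Trpm5 at 0.95, with Rit2 at 0.95 and Cart at 0.95. Abcc8 was matched by Elp3, 2810046L04Rik and 2310021P13Rik, each at 0.99. Tpp2 (0.96) and Ino80c (0.92) stood nearest to Cacna1d, and Disp1 (0.98), Cpt2 (0.97) and D10Wsu102e (0.97) to Glp1r. The arrays numbered 2 enter all of these values, and without them r for these genes ran from 0.860 to 0.991. These are the highest values among 7424 genes over only 8 arrays, so a high r comes in part from the choice itself. The 6 arrays left are among the 8 used for that choice and are no separate check.

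The islet arrays numbered 2 moved the members in different directions. Set against the mean of the other 3 arrays of their group, Abcc8 was 1.94 log2 units higher on the FK866 array and 1.74 on the control array. Slc2a2 was lower, by differences of -0.40 and -1.13, and so was Trpm5, at -0.35 and -0.50, while Glp1r was higher at 0.36 and 0.66. Some marker lists of other cells differed on the same arrays. Endothelial markers had a summed signal of 9036 on FK866 array 2, against 5393 to 6972 on the other FK866 arrays, and of 8503 on control array 2, against 5224 to 5485 on the other control arrays. Their median differences were 0.42 with FK866 and 0.23 in controls. Macrophage markers had median differences of 0.08 with FK866 and 0.02 in controls. Their summed signal was 4603 on FK866 array 2, against 5194 to 6331 on the other FK866 arrays. On control array 2 it was 4075, against 3865 to 7039 on the other control arrays. Of 16 fibroblast and stellate cell markers measured, 5 were detected on all 4 arrays and 5 on none in each islet group, and the median difference of array 2 over 8 of them was 0.79 with FK866 and 1.28 in controls. Their summed signal in islets ranged from 6156 to 9327 with FK866 and from 9333 to 11481 in controls, so the 2 ranges nearly met. That sum includes the markers detected on no array of a group, and its difference between treatments was not tested. The list of alpha, delta and PP cells, with 7 of 10 markers detected on every array of each islet group, had a median difference of -0.91 with FK866 and -0.50 in controls, and a summed signal of 174493 to 231475 with FK866 and 207804 to 252940 in controls. Beta cell markers had medians of 0.07 and -0.01, and summed signals of 178142 to 200477 with FK866 and 173948 to 222763 in controls. The part of these differences in the members' values was not tested.

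Different probes of a gene did not keep a constant distance over the islet arrays. For Slc2a2 the brightest probe exceeded its second probe by 2.41, 3.79, 2.73 and 2.55 log2 units on FK866 arrays 1 to 4, against 2.33, 3.84, 4.30 and 2.46 on control arrays 1 to 4. For Slc30a8 the distance to its dimmest probe was 2.69, 4.10, 2.51 and 2.71 with FK866, against 2.88, 4.68, 3.83 and 2.48 in controls. The second Slc2a2 probe was not detected on either array numbered 2, so its distances there are to background, while the dimmest Slc30a8 probe was detected on all 8. Levels of different probes are not comparable in themselves, and only the change of a distance between arrays is described. In both genes the distance was wide on FK866 array 2 and on control arrays 2 and 3. Those are the 3 islet arrays on which Abcc8 was highest. Trpm5 and Cacna1d, the other members with a second probe, did not share this pattern. For Trpm5 the distance was narrowest on the arrays numbered 2, at 0.25 with FK866 and 0.27 in controls. For Cacna1d it was widest there, at 1.51 and 2.20, the latter to an undetected probe. On control array 3 it was 0.63, the narrowest of the Cacna1d controls. The distance of Slc30a8 to its other probe stayed between 2.16 and 2.46 on all 8 arrays. The change of Slc30a8 with FK866 was accordingly -0.17 and -0.18 on 2 probes and 0.29 on the dimmest. What sets this distance was not tested. Without the 4 islet arrays numbered 2 and 3, all 6 members remained higher in islet controls than in hepatocyte controls, and 0 of 6 were called with FK866.

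**Figure D5:**
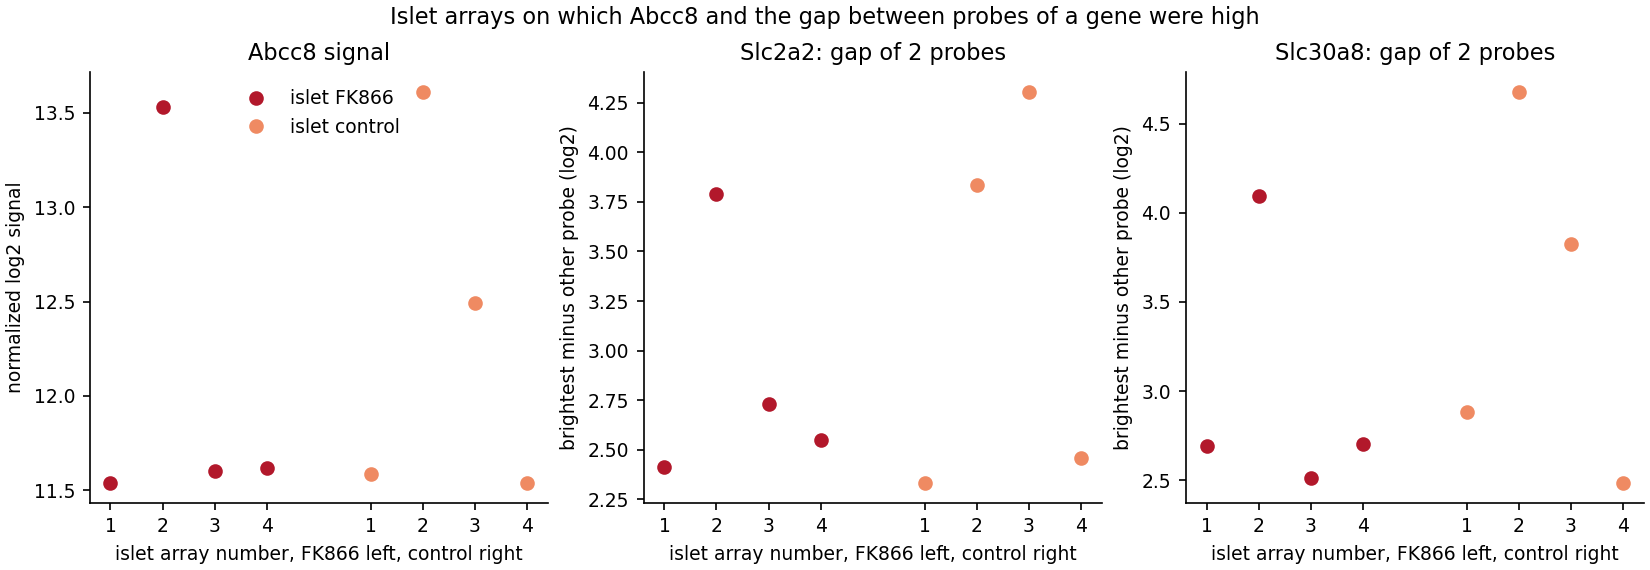
Log2 signal of Abcc8 (left) and the distance in log2 signal between 2 probes of Slc2a2 (middle) and of Slc30a8 (right) on the 8 islet arrays, 1 point an array, with FK866 left and control right; vertical axes do not start at 0. FK866 array 2 and control arrays 2 and 3 are the highest 3 points in each panel. The distances of Trpm5 and Cacna1d, not drawn, did not follow this order.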

How the data were processed

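Illumina bead arrays measured total RNA of 16 samples. One deposited table gives a linear intensity per probe and array, some of them below 0, each with a detection p-value computed by the authors' software. The deposited normalized table holds a score per gene symbol, which by its values is the log10 signal, centred and scaled in each array. No label or header names the scanner software, the annotation or how the authors normalized. Expression values had been assumed for the score table when tests were chosen, so the scores served for names and as an alternative. No deposited column was left without a sample (0 columns).

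The 25697 probes carry no gene name. Probes were named by matching runs of neighbouring probes to the scores within 1e-06 log10 units, with signals under 1 set to 1. This matched 16646 of 18111 symbols, and most of the rest (1464) were at the floor on all arrays. Over 5015 score rows the islet columns were displaced by 1 row and were moved back, and no member lies among them.

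In R 4.3.3 with limma 3.58.1, neqc (offset 16) corrected background from the detection p-values, quantile normalized and took log2, over all 16 arrays for tissues and the interaction and per tissue for FK866. The brightest probe stood for a gene, and genes detected (p under 0.05) on at least 4 arrays were tested by limma. Its p-values were adjusted by Benjamini-Hochberg, and genes under 0.05 were called. Likeness, tables and figures used Python 3.11.15, numpy 2.4.6 and matplotlib 3.10.9. The fits were tested on simulated data. The number of arrays limits the precision.

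Named genes were the members, up to 4 genes of each role and direction with the largest called tissue change, the 2 smallest p-values of the list for FK866 and the 3 nearest genes by r; a few genes that this rule names are not reported here. The members and lists were chosen with earlier results of these data known. Same-numbered arrays of a tissue deviated together, with correlations of 0.528 to 0.926 in islets and 0.385 to 0.615 in hepatocytes. Arrays of different number lay between -0.847 and 0.667 in islets and between -0.369 and 0.078 in hepatocytes. The islet ranges overlapped. FK866 array 3 was at 0.528 with control array 3, but at 0.572 with control array 1 and 0.667 with control array 4. The numbers were taken to pair the samples, with pair 3 of the islets less sure. This comes from the data and not from the labels.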

Additional observations from a re-analysis of the deposited data

Results flagged for a closer look

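Abcc8 on FK866 islet array 2 had a log2 signal of 13.638, with the other 3 arrays of that group at 11.63, 11.70 and 11.72, a distance that is 0.958 of the range of the group. It was the 1 value far from its group among 28 groups of 4 arrays examined, of which chance alone would place about 1 in 20 that far. The control islet array with the same number was also the highest of its group, at 13.72.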

How the results depend on the processing

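All 6 tested members stayed higher in islet controls than in hepatocyte controls under each alternative run (29 settings, with scores, filters, background methods, probe means, the replicate block and left-out arrays), and no member or listed gene was called with FK866 or in the interaction under any. With the replicate block, Trpm5 in islets had an adjusted p of 0.280, Abcc8 0.630 and Slc2a2 0.531, and the block changed no member's call. The count of all genes called with FK866 moved off 0 in few settings. In islets it was 1 with no background correction, 1 with the block and 2 with all arrays fitted together, and in hepatocytes 2 on the scores. In the interaction it was 1, 4 with the block, 2 without islet control array 2, 4 and (with the block) 14 without both islet arrays numbered 2, and 9 without those numbered 2 and 3. The settings without islet arrays numbered 2 and 3, and without those numbered 2 with the block, were chosen after seeing the data. Some uncalled FK866 changes changed sign. Slc2a2 in hepatocytes was 0.26 on the scores and 0.17 on the mean of its probes, and ran from -0.23 to 0.090 with 1 array left out at a time. In islets the same range was -0.72 to 0.20 for Abcc8 and -0.30 to 0.019 for Glp1r. In the interaction it was -0.53 to 0.038 for Slc2a2, -0.64 to 0.28 for Abcc8, -0.013 to 0.21 for Cacna1d and -0.29 to 0.023 for Glp1r. Without islet arrays 2 and 3, Abcc8 was 0.015 in islets and 0.10 in the interaction, and Glp1r 0.032 and 0.035. Between tissues Slc39a7 was -0.082 and Camk2d 0.10 on the scores, and Kcnk1 -0.20, P2ry1 -1.59 and Plcb4 0.12 where the displaced rows were not moved back, which pairs 2 genes in 1 row. Kcnj8, Plcb3, Cacna1c, Camk2d, Slc39a7 and Kcnip1 lost their call in some settings; the cause was not tested. Normalizing each tissue on its own shifted the median tissue difference to -0.04, against 0.08, and the share of calls that were higher to 48.2%, against 53.0%. Low signals of Cacna1d and Glp1r, and hepatocyte signals at background, limit what their folds can show.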
